A study of Mus musculus with 99 samples.

Results

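The binding of RING1B to chromatin was measured by ChIP-seq, in which DNA held by a protein is enriched with an antibody and sequenced, in 4 libraries of mouse embryonic stem cells (ESCs). All RING1B peaks of these 4 libraries are described here, 10991 in all, of 407999 regions in the 73 peak lists of the study that were read. Parental −OHT cells contributed 5073 peaks, RING1B WT +OHT cells 3941, RING1B I53S +OHT cells 1287 and Parental +OHT cells 690. The study asked what PRC1 does for gene repression through its catalytic activity and what it does without it. The 12 RNA-seq libraries of the same 3 lines, 2 for each line with and without OHT, were used to follow the genes at the peaks.

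All cells carried ROSA26::creERT2 and lacked Ring1A (Ring1A−/−), and both endogenous Ring1B alleles were floxed (Ring1B fl/fl). OHT (4-hydroxytamoxifen) moves the Cre recombinase into the nucleus, where it deletes Ring1B. Cells were given 0.5 µM OHT for 72 h, or ethanol as vehicle (−OHT), in 2i/LIF medium with serum. Parental −OHT cells therefore held endogenous RING1B, and Parental +OHT cells should hold neither RING1A nor RING1B. RING1B WT and RING1B I53S cells were puromycin-selected sub-clones of the Parental line that stably expressed tagged RING1B, wild type or with serine in place of isoleucine at residue 53, from a CAG promoter. The level of a transgene and its site of integration can differ between such sub-clones. Some peak lists of other antibodies and of input DNA came from Mtf2 knockout (Mtf2−/−) derivatives of these lines. The Eed fl/fl ESCs used below as an RNA reference were a separate line, derived from blastocysts of ROSA26::creERT2 Eed fl/fl mice. Each condition had 1 RING1B library, so the differences between the peak lists have no replicate check and no test. Intervals given for shares are 95% Wilson intervals over peaks or loci, which cover counting error only and treat neighbouring loci as independent.

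RING1B and RING1A are the interchangeable E3 ligases of Polycomb Repressive Complex 1 (PRC1), which place ubiquitin on histone H2A (H2AK119ub1). The I53S substitution lies in the RING domain, where the E2 enzyme docks, and removes the ligase activity. Canonical PRC1 holds PCGF2 or PCGF4 with a CBX protein, which reads the H3K27me3 that PRC2 (with SUZ12) places, whereas variant PRC1 holds RYBP or YAF2 with any PCGF protein. PCGF6 marks the variant complex PRC1.6, which reaches DNA through MGA and E2F6. In ESCs, PRC1 sits at CpG islands of genes for developmental regulators and keeps them at low expression.

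The sequences below show the kinds of DNA found under the peaks. Each is the centre of a peak on the forward strand of mm10, 300 bases long unless stated, and CG dinucleotides, the units of CpG islands, are in capitals. The Plxnd1 window (chr6:115993253-115993552, 236 bases of intron and 64 of coding exon) lies in the peak with the highest Parental −OHT score. The Tlx2 window (chr6:83069807-83070079, 273 bases of coding exon, with the 27 bases of untranslated exon left out) lies in the promoter locus where RING1B I53S scored highest without a Parental +OHT peak. The Coil window (chr11:88968520-88968819, between genes) lies in the promoter peak with the highest Parental +OHT score. The Recql5 window (chr11:115906947-115907246, 236 bases of intron and 64 of noncoding exon) lies in a peak found in RING1B I53S cells alone, and was chosen after its values were seen.
Plxnd1: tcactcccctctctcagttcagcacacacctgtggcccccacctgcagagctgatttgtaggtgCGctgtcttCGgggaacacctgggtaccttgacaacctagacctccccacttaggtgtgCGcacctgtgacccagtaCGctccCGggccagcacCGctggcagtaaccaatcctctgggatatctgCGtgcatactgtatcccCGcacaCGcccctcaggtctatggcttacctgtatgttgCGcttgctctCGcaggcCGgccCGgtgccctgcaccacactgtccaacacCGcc
Tlx2: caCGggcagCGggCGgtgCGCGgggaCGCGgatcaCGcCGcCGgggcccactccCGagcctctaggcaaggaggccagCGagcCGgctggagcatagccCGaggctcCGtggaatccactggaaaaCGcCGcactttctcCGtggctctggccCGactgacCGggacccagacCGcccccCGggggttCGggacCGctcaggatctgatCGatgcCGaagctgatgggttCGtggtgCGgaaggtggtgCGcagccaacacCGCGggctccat
Coil: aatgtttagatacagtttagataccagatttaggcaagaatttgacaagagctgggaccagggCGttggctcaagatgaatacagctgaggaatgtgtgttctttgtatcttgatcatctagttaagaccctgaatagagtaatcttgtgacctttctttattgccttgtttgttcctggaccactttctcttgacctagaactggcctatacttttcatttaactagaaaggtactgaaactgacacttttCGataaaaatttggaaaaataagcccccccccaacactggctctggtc
Recql5: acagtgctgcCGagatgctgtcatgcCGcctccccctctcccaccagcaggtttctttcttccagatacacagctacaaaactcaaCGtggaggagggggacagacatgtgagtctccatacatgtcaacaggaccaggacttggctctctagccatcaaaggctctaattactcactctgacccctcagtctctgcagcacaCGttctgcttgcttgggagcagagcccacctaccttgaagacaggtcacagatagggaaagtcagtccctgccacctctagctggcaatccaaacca
The Plxnd1 and Tlx2 windows held 14 and 31 CG dinucleotides. The Coil window held 2 and the Recql5 window 4. This contrast between CpG-rich and CpG-poor DNA recurred across the lists, as described below.

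The lists differed in the chromosome their peaks came from. Chromosome 11 holds 6.64% of annotated genes and contributed 12.5% of the Parental −OHT peaks (635), 18% of the RING1B WT +OHT peaks (708), 66.8% of the RING1B I53S +OHT peaks (860) and 82.6% of the Parental +OHT peaks (570). These peaks were spread over the whole chromosome, since in each list all 13 of its 10-Mb bins held peaks. Per 10 Mb, chromosome 11 held 52.0, 58.0, 70.4 and 46.7 peaks in the 4 lists in this order. The other chromosomes together held 17.7, 12.9, 1.70 and 0.478 per 10 Mb. The numbers on chromosome 11 were thus of the same order in cells with and without RING1B, while those elsewhere were far lower in RING1B I53S and Parental +OHT cells. Chromosome 8 contributed 4.73%, 4.06%, 0.544% and 0.290%. In the peak lists of the other antibodies of the study, 65 in all, chromosome 11 took 7.14% to 67.2% (median 16.0%). Of these lists 4 were above 50%, all from MTF2 knockout lines with OHT. Set against Eed fl/fl −OHT ESCs of the same study, genes of chromosome 11 had a median log2 RNA ratio of 0.34 to 0.39 in all 6 groups of the 3 lines, with or without OHT, and genes of chromosome 8 of −0.55 to −0.46. The other 18 chromosomes lay between −0.22 and 0.13. The part of these values in the peak counts was not tested. Chromosome 11 was set apart after the data had been seen. Values without it are marked as such, and the others are over all chromosomes. Without it the lists held 4438, 3233, 427 and 120 peaks.

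**Figure D1:**
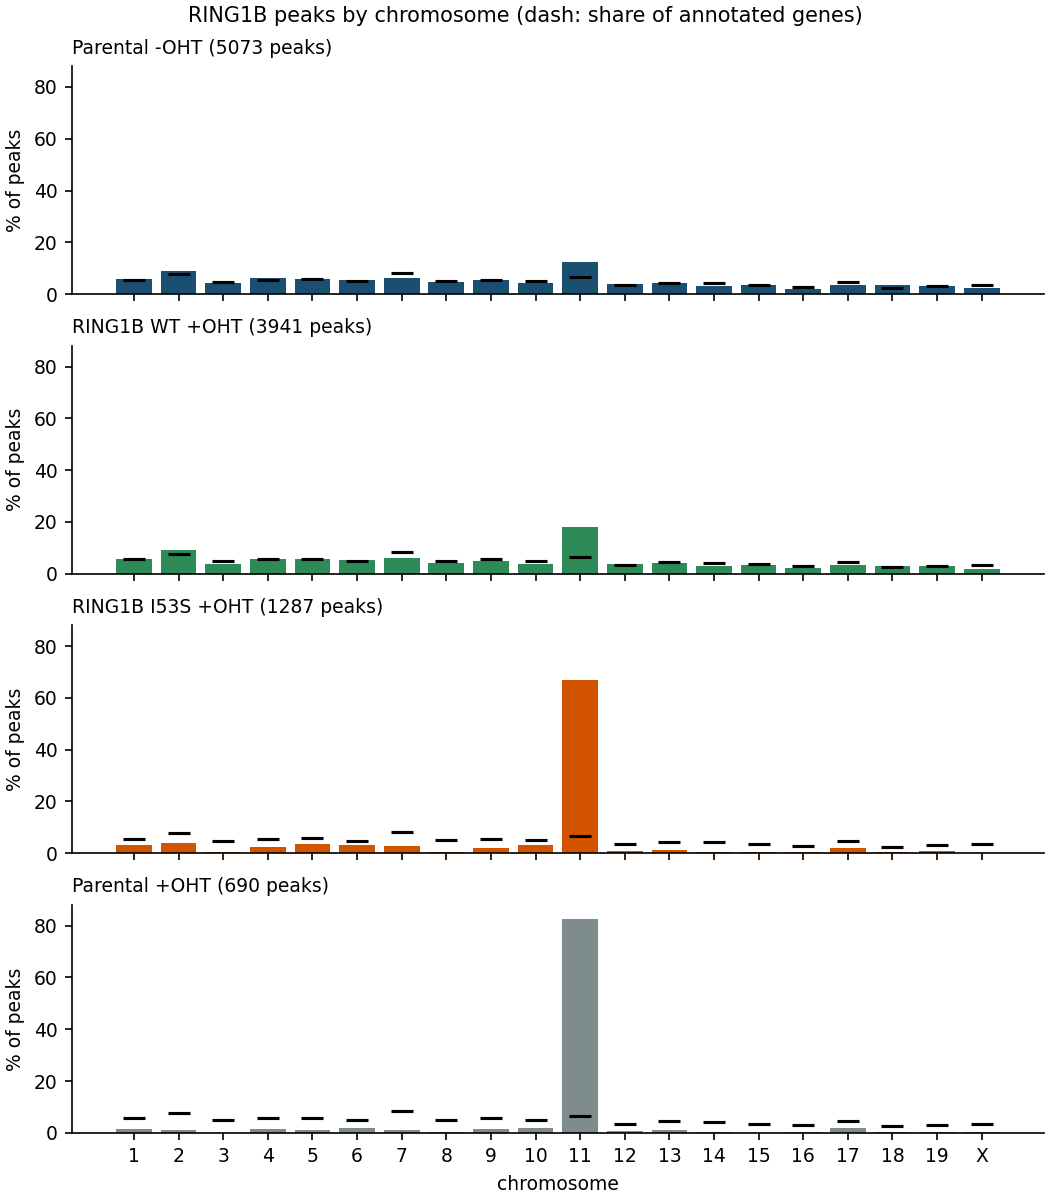
Share of RING1B peaks on each chromosome (bars, % of the peaks of a library) in the 4 libraries, 1 library per panel, with the share of annotated genes on that chromosome as a dash. The bar of chromosome 11 stands above its dash in all 4 libraries, at 12.5% in Parental −OHT and 18% in RING1B WT +OHT cells, and takes 66.8% of the peaks in RING1B I53S +OHT and 82.6% in Parental +OHT.

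The peaks of cells without active RING1B were narrower, lower in score and poorer in CpG. The score of a peak is the −log10 p-value of its enrichment over input DNA, and 10 was the lowest score kept. It rises with sequencing depth, which the peak lists do not hold, so scores are compared here as values of these 4 libraries. Parental −OHT peaks had a median width of 1451 bp and a median score of 33.6, with 9.37 Mb covered in all. RING1B WT +OHT peaks had medians of 1267 bp and 25.1, with 6.42 Mb covered. For RING1B I53S +OHT the medians were 864 bp and 11.4 with 1.42 Mb covered, and for Parental +OHT 847 bp and 11.3 with 0.730 Mb covered. A score of at least 20 was reached by 3453 Parental −OHT peaks, 2313 RING1B WT, 52 RING1B I53S and 12 Parental +OHT peaks. Over input DNA itself, 11, 9, 6 and 8 peaks overlapped a peak called in an input library. The input lists read were 4, from H3K27me3 ChIP-seq in MTF2 knockout lines, with 9 to 19 peaks each. No peak list of an input of the RING1B libraries was read, so few overlaps do not measure the background at these peaks.

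CpG dinucleotides per 100 bp of peak had a median of 5.92 in Parental −OHT and 6.58 in RING1B WT +OHT cells outside chromosome 11. In RING1B I53S cells the median was 2.7, with quartiles of 1.52 and 9.14, so that CpG-poor and CpG-rich peaks stood side by side. Parental +OHT peaks had a median of 1.52 and an upper quartile of 2.34. Promoters, taken as the 2.5 kb to either side of an annotated start site, were overlapped by 83.6% (82.4% to 84.6%) of the Parental −OHT peaks and 84.2% (82.9% to 85.4%) of the RING1B WT peaks outside chromosome 11. The share was 63.7% (59.0% to 68.1%) for RING1B I53S and 55.0% (46.1% to 63.6%) for Parental +OHT. On chromosome 11 the shares were 76.2%, 70.9%, 50.9% and 49.6%.

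**Figure D2:**
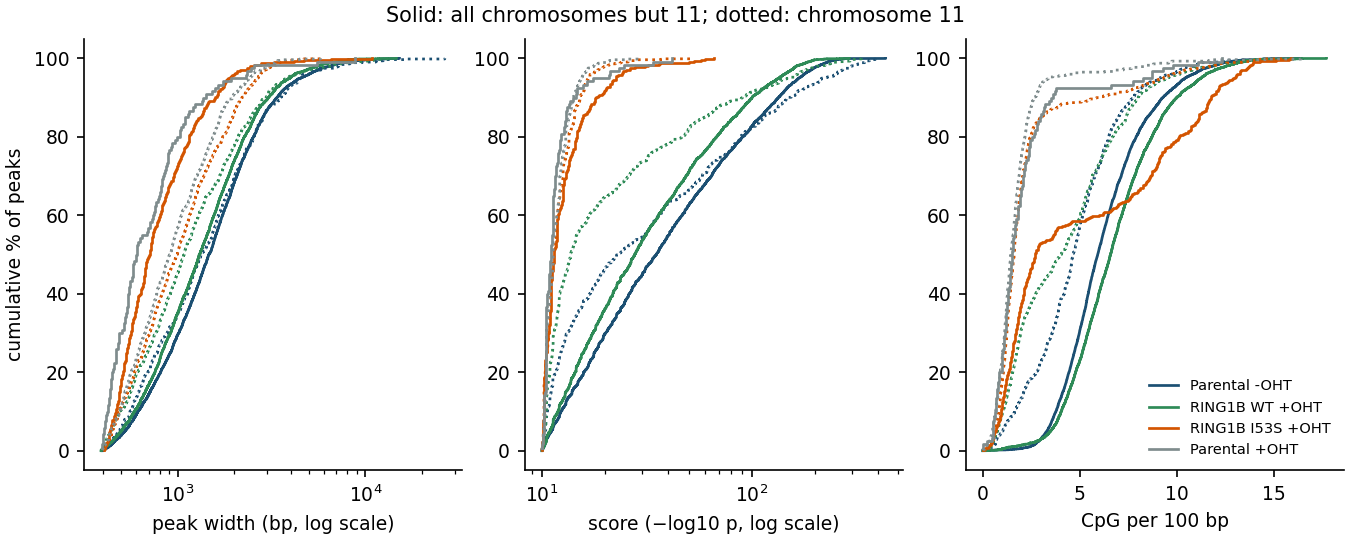
Cumulative share of peaks (%) against peak width, score (−log10 p) and CpG per 100 bp for the 4 RING1B libraries, with solid lines for all chromosomes but 11 and dotted lines for chromosome 11. The RING1B I53S and Parental +OHT curves lie to the left of those of Parental −OHT and RING1B WT for width and score, and the solid RING1B I53S curve for CpG spans low values and values up to those of Parental −OHT.

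RING1B WT cells held peaks at most loci of the endogenous protein, and RING1B I53S cells at few. A Parental −OHT locus was counted as kept when a peak of another library overlapped it by at least 1 bp. Outside chromosome 11, RING1B WT +OHT cells held a peak at 68.0% of the 4438 loci (3018; 66.6% to 69.4%). RING1B I53S +OHT cells held one at 3.72% (165; 3.20% to 4.32%). Parental +OHT cells held one at 0.383% (17; 0.239% to 0.613%). On chromosome 11, where 635 loci lie, the shares were 63.3%, 19.7% and 9.29%. In the other direction, 97.1% of the RING1B WT peaks outside chromosome 11 lay on a Parental −OHT locus, against 38.9% of the RING1B I53S peaks and 12.5% of the Parental +OHT peaks. With the 690 top-scoring peaks of every list, so that the lists had equal length, the shares of Parental −OHT loci kept were 80.4%, 16.1% and 0.870% over all chromosomes, against 67.4%, 5.72% and 1.5% with the whole lists over all chromosomes.

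Whether a locus was kept differed with its strength in Parental −OHT cells. RING1B WT kept 16.4% of the loci in the lowest quartile of score (10.0 to 17.0), then 55.4% and 95.2%, and 99.9% (1112 of 1113) in the highest quartile (75.2 to 435), all outside chromosome 11. RING1B I53S kept 1.18%, 0.867% and 1.3% in the lower 3 quartiles and 11.5% (128 of 1113; 9.76% to 13.5%) in the highest. Parental +OHT cells kept 0.888%, 0.347%, 0.346% and 0 of 1113, which allows a share of up to 0.27%. By quartile of width, RING1B WT went from 22.8% to 96.9% and RING1B I53S from 0.465% to 11.4%, in step with the score, since wide loci also scored high. CpG density ordered the loci less: RING1B I53S kept 2.37%, 4.45%, 3.72% and 4.12% from the poorest to the richest quartile.

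**Figure D3:**
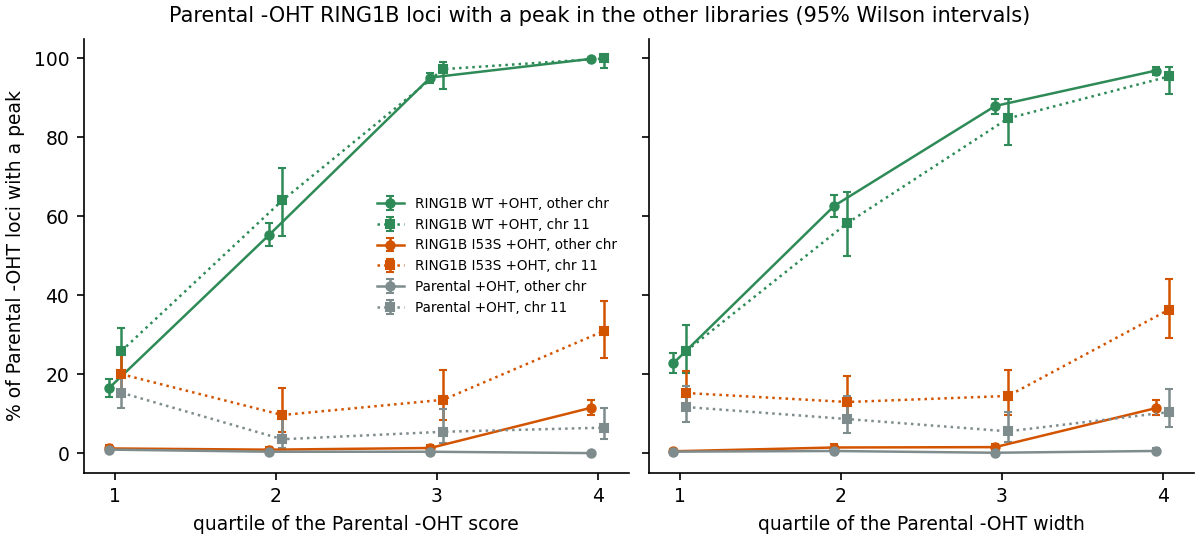
Share of Parental −OHT RING1B loci (%) that hold a peak in each of the other 3 libraries, by quartile of the locus score and width, on chromosome 11 and on the other chromosomes, with 95% Wilson intervals. Outside chromosome 11, RING1B WT rises from 16.4% to 99.9% over the score quartiles, RING1B I53S stays at or under 1.3% up to the third and reaches 11.5% in the fourth, and Parental +OHT stays under 1%.

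At the loci kept by RING1B WT or RING1B I53S, scores were mostly lower than in Parental −OHT cells. Scores depend on depth, which was not analysed, so these values do not measure a difference in enrichment. RING1B WT scored lower than Parental −OHT at 94.8% of the 3018 shared loci outside chromosome 11, with medians of 28.9 and 55.6, and its peaks covered a median of 76.5% of the locus. At the 165 loci shared with RING1B I53S, the median score was 13.3 against 164 in Parental −OHT cells, and I53S peaks covered a median of 28.0% of the locus (quartiles 17.6% and 44.9%). The 17 loci shared with Parental +OHT had close medians, 16.4 and 16.5, and were weak in both.

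The strongest loci showed these ranges one by one. The peak at Plxnd1, a semaphorin receptor gene, spanned 3348 bp (chr6:115991729-115995076). It scored 435 in Parental −OHT, 292 in RING1B WT and 16.8 in RING1B I53S cells, and had no peak in Parental +OHT cells. At Otx1, a homeobox gene of the forebrain, a single locus of 12459 bp (chr11:21992553-22005011) scored 379, 316, 28.4 and 10.8 in the same order. RING1B WT peaks covered 99.6% of it and RING1B I53S peaks 22.7%. Hs3st3b1, a heparan sulfate sulfotransferase gene, scored 388, 213, 20.1 and 12.8, and Sost, which encodes a secreted WNT antagonist, 364, 246, 12.2 and no Parental +OHT peak. Gm9945 scored 402, 299, 19.5 and had no Parental +OHT peak. Of these 5 strongest promoter loci, all but Plxnd1 lie on chromosome 11, and the Parental +OHT peaks were found at Otx1 and Hs3st3b1.

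The loci where RING1B I53S scored highest without a Parental +OHT peak were the following 5. Tlx2, a homeobox gene of neural crest derivatives, scored 57.4 with RING1B I53S against 177 in Parental −OHT and 162 in RING1B WT cells, and I53S peaks covered 70.3% of its locus (chr6:83068239-83071675). Gm4969 was a narrow locus of 1087 bp and scored 111, 86.5 and 52.9 in Parental −OHT, RING1B WT and RING1B I53S cells. Neurod2 (chromosome 11), a neuronal bHLH factor, scored 352, 334 and 52.5. Insm1, a zinc-finger factor of neuroendocrine cells, scored 245, 197 and 50.2. Nkx1-1, a homeobox gene, scored 275, 179 and 36.4. In RING1B I53S cells all 5 loci also held H2AK119ub1 and PCGF6 peaks. All but Gm4969 held PCGF2, SUZ12 and H3K27me3 peaks as well, and Neurod2 alone a CBX7 peak. RYBP peaks lay at Gm4969, Neurod2 and Insm1. H2AK119ub1 peaks were called in Parental +OHT cells as well, as given below, so they do not measure the level of the mark.

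At Gbx2 (chromosome 1), a homeobox gene of the midbrain-hindbrain boundary, no RING1B I53S peak was called although the locus spanned 10342 bp and scored 278 in Parental −OHT and 165 in RING1B WT cells. The same held at Abhd15 (309 and 166), Sphk1 (292 and 162), a sphingosine kinase gene, and Fstl4 (291 and 181), all on chromosome 11. A high Parental −OHT score therefore did not by itself go with a RING1B I53S peak. The widest Parental −OHT peak, 26530 bp, lay at Cbx8 (chr11:119034053-119060582) beside Cbx2, both genes for chromodomain subunits of PRC1 itself. It scored 252 in Parental −OHT and 166 in RING1B WT cells, where 4 peaks covered 91.4% of it, and held no RING1B I53S peak. The widest peaks after it were at Tbx2 (16400 bp), Gm27199 (15205 bp), Ebf3 (14930 bp) and Pax7 (14669 bp). RING1B I53S peaks covered 8.45% of the Tbx2 locus and 4.38% of the Ebf3 locus, and were absent from the Gm27199 and Pax7 loci.

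The peaks left in Parental +OHT cells had another make-up. The promoter peak with the highest score lay at Coil (chr11:88967834-88969505), which encodes the Cajal body protein coilin, and was present in all 4 libraries with scores of 35.9 (Parental −OHT), 48.5 (RING1B WT), 18.8 (RING1B I53S) and 25.5 (Parental +OHT). It overlapped an input peak and held 0.658 CpG per 100 bp. Hjurp, a centromeric histone chaperone gene, was also called in all 4, with 15.2, 22.3, 24.1 and 23.2, and gave the widest RING1B I53S peak (10807 bp). Rhbdd3 scored 21 in Parental +OHT against 12.3 in Parental −OHT cells. Arhgap27 scored 20.9 in Parental +OHT and 11.1 in RING1B I53S cells and had no peak in Parental −OHT or RING1B WT cells. Gm10717, on an input peak as well, scored 20.8. These peaks were chosen by their Parental +OHT score, so their presence in cells without RING1B was set by the choice. Among the widest RING1B I53S peaks, the one nearest to Ccr1 lay on an input peak and outside any promoter, Fasn and Recql5 had no Parental −OHT peak, and 4932441J04Rik was a Parental −OHT locus with scores of 114, 104 and 23.0 in Parental −OHT, RING1B WT and RING1B I53S cells.

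The RING1B I53S peaks could be split by whether they lay on a Parental −OHT locus. Of the 427 peaks outside chromosome 11, 166 lay on such a locus. They had a median of 9.99 CpG per 100 bp, and 86.1% touched a promoter. In the same cells 93.4% of them overlapped an H2AK119ub1 peak, 65.1% a PCGF2 peak, 59.0% a PCGF6 peak and 86.1% a SUZ12 peak. The other 261 peaks had a median of 1.79 CpG per 100 bp, a median score of 11 and a promoter share of 49.4%. Of these, 7.28% overlapped H2AK119ub1, 0.766% PCGF2, 1.15% PCGF6 and 3.07% SUZ12. On chromosome 11, 727 of 860 RING1B I53S peaks lay off the Parental −OHT loci, with a median of 1.53 CpG per 100 bp and PCGF2 peaks at 0.138%. The Parental +OHT list was of the second kind nearly throughout, with 105 of 120 peaks off the loci outside chromosome 11 (1.5 CpG per 100 bp) and 511 of 570 on chromosome 11 (1.41). RING1B WT cells had 388 such peaks among 3941, of which 75.8% (294) lay on chromosome 11, with a median score of 11.3 and 1.79 CpG per 100 bp. H2AK119ub1 peaks were also called in Parental +OHT cells, 5450 against 3120 in RING1B I53S cells. There they overlapped 13 of the 15 RING1B peaks on a Parental −OHT locus outside chromosome 11. A called peak therefore does not measure the level of the mark, which the paper reported as lost in RING1B I53S cells.

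Peaks of other Polycomb proteins in the same cells gave the company that RING1B kept. Outside chromosome 11, SUZ12 peaks overlapped 97.0% of the Parental −OHT RING1B peaks, PCGF2 90.0%, H3K27me3 89.2%, CBX7 87.3%, H2AK119ub1 71.5%, PCGF6 59.4% and RYBP 33.8%. RING1B WT +OHT peaks were close to this for SUZ12 (96.2%), H3K27me3 (90.7%) and PCGF2 (89.6%). They were lower for CBX7 (70.8%; 69.2% to 72.3%) and RYBP (18%; 16.7% to 19.4%) and higher for H2AK119ub1 (83.3%; 81.9% to 84.5%) and PCGF6 (85%; 83.8% to 86.2%). RING1B I53S peaks overlapped H2AK119ub1 at 40.7%, SUZ12 at 35.4%, H3K27me3 at 29.7%, PCGF2 at 25.8%, PCGF6 at 23.7%, RYBP at 17.1% and CBX7 at 3.04%. The shares also depend on how many peaks the other antibody had: CBX7 had 5140 peaks in Parental −OHT and 2648 in RING1B WT cells, and 32 in RING1B I53S and 59 in Parental +OHT cells. RYBP of Parental +OHT cells was not analysed here.

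**Figure D4:**
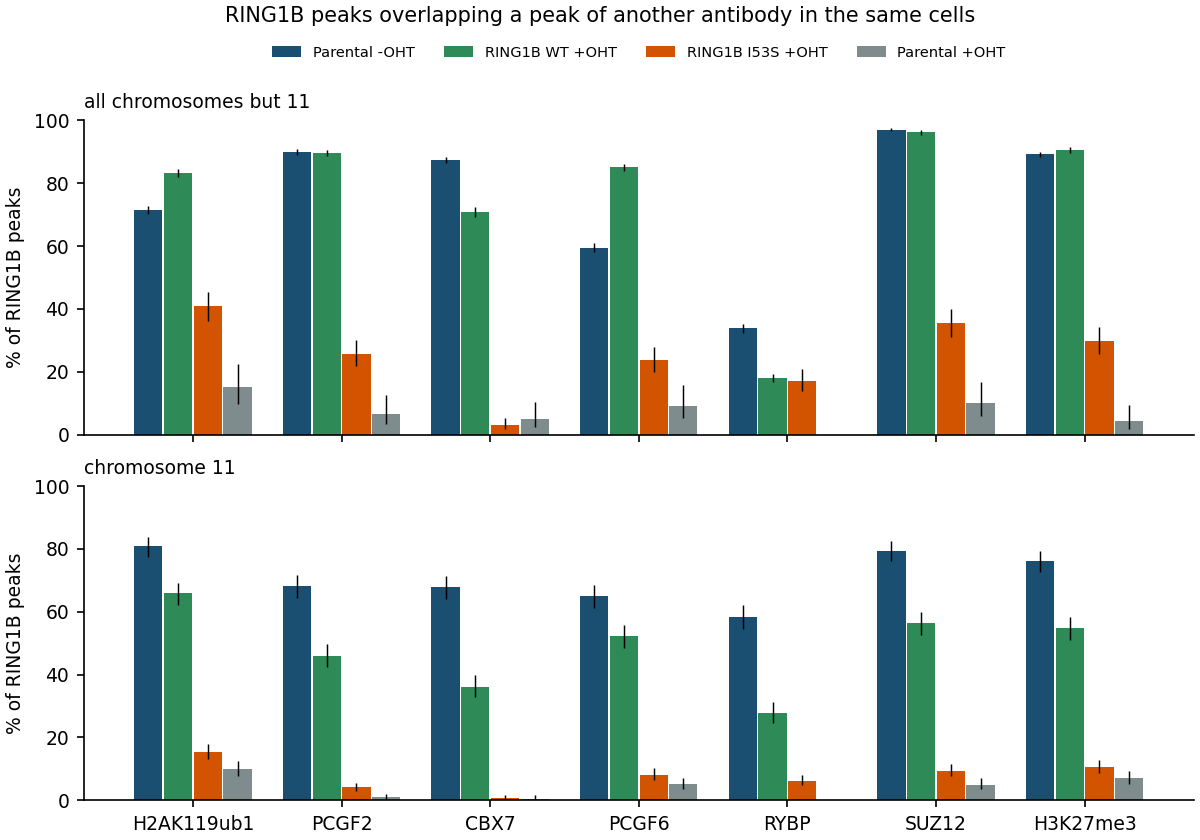
Share of RING1B peaks (%) that overlap a peak of each of 7 other antibodies in the same cells, outside chromosome 11 (upper panel) and on it (lower panel), with 95% Wilson intervals, no bar being drawn for RYBP in Parental +OHT cells. SUZ12, PCGF2 and H3K27me3 bars are near 90% or above for Parental −OHT and RING1B WT in the upper panel, while RING1B I53S bars reach 40.7% at most and are lower still on chromosome 11.

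The loci with a RING1B I53S peak were wide and strong in Parental −OHT cells and often held PCGF6 and RYBP. The 153 Parental −OHT loci outside chromosome 11 with a RING1B I53S peak and no Parental +OHT peak had a median width of 3540 bp and a median score of 173, against 1833 bp and 53.5 for the 2851 loci kept by RING1B WT alone. The 1417 loci kept in no library had medians of 803 bp and 15.3. In Parental −OHT cells, PCGF6 peaks lay at 93.5% of the loci kept by RING1B I53S, at 62.4% of those kept by RING1B WT alone and at 49.8% of those kept in none. RYBP lay at 75.2%, 35.0% and 26.7%. PCGF2 lay at 93.5%, 97.7% and 74.8%. In RING1B I53S cells the kept loci held SUZ12 at 89.5% and H3K27me3 at 83.7%, while loci kept by RING1B WT alone held them at 59.5% and 46.0%. PCGF2 was found in RING1B I53S cells at 67.3% of the kept loci and at 11.1% of the others kept by RING1B WT, and CBX7 at 5.88% and 0.0351%.

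Since strong loci carry more of every antibody, the same was asked within the highest quartile of Parental −OHT score. There RING1B I53S kept 13.1% of the loci with a PCGF6 peak (126 of 964; 11.1% to 15.3%) and 1.34% of those without (2 of 149; 0.369% to 4.76%). With RYBP the shares were 17.2% (99 of 576; 14.3% to 20.5%) and without it 5.40% (29 of 537; 3.79% to 7.65%). The groups still differed in score within the quartile, with medians of 128 and 95.5 for PCGF6 and of 131 and 114 for RYBP, and the part of this in the shares was not tested. Over all scores, RING1B I53S kept 6.07% of the loci with both PCGF6 and PCGF2 (140 of 2308), 0.415% of those with PCGF2 alone (7 of 1688), 3.03% of those with PCGF6 alone (10 of 330) and 7.14% of those with neither (8 of 112). Of the last group, Parental +OHT cells also kept 5.36% (6 loci).

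The 330 loci with PCGF6 and no PCGF2 peak held 3 of the 4 motifs searched more often than all promoters. The E-box CACGTG, the 6 letters that MYC-family proteins such as MGA bind, was found on either strand in the central 300 bp of 21.2% of them (70; 17.1% to 25.9%). It was found in 7.37% of all Parental −OHT peaks outside chromosome 11 and in 7.15% of all 32817 RefSeq promoters of the same length. RING1B WT kept 20.9% of these loci and their median score was 14. The Tlx2, Coil, Recql5 and Plxnd1 windows printed above hold no E-box. The core GCGGGAA of E2F sites, which E2F6 binds, was found in 15.2% of the 330 loci, 9.13% of all Parental −OHT peaks outside chromosome 11 and 4.60% of the promoters, and the core GCATGCG of NRF1 sites in 9.09%, 2.43% and 3.57%. Plxnd1 holds 2 matches to the T-box core AGGTGTG, a motif found in 4.51% of these Parental −OHT peaks and 5.84% of all promoters. Both strands were searched, and no letters of 1 motif contain another. A match is a description of letters and not a binding site. The windows also differed in CpG, with a median of 9.33 per 100 bp in the 330 loci. It was 7.67 in all Parental −OHT peaks outside chromosome 11 and 2.33 in the promoters. The E-box, E2F and NRF1 motifs contain CG and the T-box core does not. The part of base composition in these shares was not tested.

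By gene, 4716 of 32065 annotated protein-coding and lncRNA genes had a Parental −OHT RING1B peak at a promoter, 3581 had a RING1B WT peak, 710 a RING1B I53S peak and 336 a Parental +OHT peak. Without chromosome 11 the numbers were 4178, 3060, 323 and 74. Of 191 genes in 17 families of developmental regulators, 179 had a peak in Parental −OHT, 174 in RING1B WT, 32 in RING1B I53S and 1 in Parental +OHT cells. The last was Zic2, a zinc-finger factor, with a score of 11.1. All 39 Hox genes, which set position along the body axis, had a Parental −OHT peak, 38 a RING1B WT peak and 3 a RING1B I53S peak. The strongest of these 3 was Hoxb2 (chromosome 11) with 299, 298 and 28.4 in Parental −OHT, RING1B WT and RING1B I53S cells, followed by Hoxb6 (257, 180 and 16.4) and Hoxd13 (226, 193 and 12.7). Hoxa3 and Hoxa7 shared a locus with scores of 181 and 112 and no RING1B I53S peak, and none of the 11 Hoxa genes had one.

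RING1B I53S peaks were also counted in each family. Over all genes, 710 of 32065 had a RING1B I53S promoter peak, as had 400 of the 4716 genes with a Parental −OHT peak. Among the Fox genes, forkhead factors, 9 of 20 had a RING1B I53S peak, including Foxb1 (30.9), Foxf2 (21.6) and Foxd4 (14.9). Among the Nkx homeobox genes it was 6 of 14, with Nkx1-1 highest (36.4) and then Nkx2-4 (19.7) and Nkx2-1 (17.9). Among proneural bHLH genes it was 6 of 17, with Neurod2 (52.5) and Olig2 (22.6) among them. Among Tbx genes it was 4 of 13, all between 10.1 and 14. No Wnt ligand gene (0 of 19), Irx gene (0 of 6) or Gata gene (0 of 6) had one. Of these genes 18, 6 and 5 had a Parental −OHT peak, such as Gata2 (255) and Wnt7a (224). Beside the share over all genes with a Parental −OHT peak, a count of 0 in such short lists gives no result about these families. A single member each was reached in the Sox (Sox9, 14.2), Pax (Pax2, 11.8), Lhx and Dlx/Msx families. The lists are small, and no difference between families was tested.

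Among 20 germline genes that PRC1.6 is known to repress, 16 had a Parental −OHT peak, 13 a RING1B WT peak and 2 a RING1B I53S peak, Zcwpw1 (21.2) and Ddx4 (14.3). Of 27 genes for PRC1 subunits 13 had a Parental −OHT peak, among them Cbx8 (252), and 11 a RING1B WT peak. Cbx2 was the 1 with a RING1B I53S peak (12.6). Of 15 pluripotency genes 3 had a Parental −OHT peak, among them Esrrb (84.1) and Prdm14 (16.7). Of 12 housekeeping genes 1 had a Parental −OHT peak (B2m, 20.7), whereas 3 others had a RING1B I53S peak: Ppia (14.2), Actb (14.1) and Eef1a1 (10.1). Over all 32065 genes, 4716 had a Parental −OHT, 3581 a RING1B WT and 710 a RING1B I53S promoter peak. Rnf2, the gene of RING1B, had no peak in any library.

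RNA-seq of the 3 lines showed what the genes at these loci did on deletion. Each RNA library held 8140106 to 12743460 counted reads, and all 6 ESC markers looked at, Pou5f1, Nanog, Sox2, Zfp42, Esrrb and Tfcp2l1, were above 1 CPM (counts scaled to a common library size) in every group. RNA of Rnf2 was 198 and 257 CPM in Parental −OHT and 144 and 167 in Parental +OHT cells, which did not overlap. The log2 fold change was −0.55 (SE 0.196; edgeR quasi-likelihood test, Benjamini-Hochberg FDR 0.0346), under the threshold of 1.5 used for calls. In RING1B WT cells it was 256 and 290 CPM without and 260 and 233 with OHT, and in RING1B I53S cells 258 and 282 without and 167 and 239 with OHT. The gene-level count includes reads of any exon outside the deleted part and of the transgene, so it does not measure the deletion.

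Genes with a Parental −OHT RING1B promoter peak had a higher median RNA change than all genes tested after OHT in all 3 lines. Calls needed a log2 fold change of 1.5 or more in either direction and an FDR under 0.05 over the 18154 genes tested, of which 3555 were among the 4716 genes. In Parental cells 1651 of these 3555 (46.4%) were called higher and 21 (0.591%) lower with OHT. Of all genes tested 15.1% were called higher and 1.83% lower. The median log2 fold change of the 3555 genes was 1.49 against 0.03 over all genes tested. In RING1B I53S cells 1507 were called higher and 14 lower (12.8% and 1.04% of all genes tested), with a median of 1.34. In RING1B WT cells 163 were called higher and 3 lower (1.34% and 0.0386% of all genes tested), with a median of 0.49 against 0.02 over all genes tested. This last count rested on 2 libraries: leaving out replicate 2 of RING1B WT −OHT gave 12, and leaving out replicate 2 of RING1B WT +OHT gave 21. Without chromosome 11, 1492, 1366 and 143 of 3105 genes with such a peak were called higher in Parental, RING1B I53S and RING1B WT cells. The genes that passed the filter on low counts include genes that passed it through the samples in which they were high. Whether the 2 replicates were separate cultures was not stated, so p-values measure the spread between these samples, which may be technical.

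The difference between the OHT effects was tested as well. In RING1B WT cells the effect was lower than in Parental cells for 170 of the 3555 tested genes with a Parental −OHT promoter peak. It was higher for 4 of them, and over all genes tested it was lower for 1.1% and higher for 0.435%. Between RING1B I53S and Parental cells the difference was called for 0 of 18154 genes by edgeR and by DESeq2. At an unadjusted p under 0.05 in edgeR, 182 genes were higher and 306 lower. Among the 3555 genes the median of this difference was −0.10, against −0.01 over all genes tested, and 42.3% were above 0. With 2 libraries per group, and no simulation of this contrast, 0 calls do not show that the effects were equal. Both comparisons use the same Parental libraries. Of the 2748 genes that were called higher with OHT in the Parental line, 60.1% had a Parental −OHT peak, as had 19.6% of the genes tested. The share called higher rose with the score of the peak, from 21.6% of the tested genes in the lowest quartile to 36.8%, 55.2% and 72.2%. Genes in higher quartiles also had less RNA in Parental −OHT cells, with medians of 9.25, 4.27, 2.19 and 0.698 CPM.

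RNA was also compared by which libraries kept a peak at the promoter, in comparisons where 15.1% of all genes tested were called higher in Parental and 12.8% in RING1B I53S cells. Outside chromosome 11, 134 tested genes had a promoter peak in RING1B I53S and none in Parental +OHT cells. Of these 88 were called higher with OHT in Parental and 80 in RING1B I53S cells, with median log2 fold changes of 2.61 and 2.25. Among the 2033 tested genes kept by RING1B WT alone, 1173 were called higher in Parental and 1084 in RING1B I53S cells, with medians of 2.03 and 1.81. Among the 925 kept in no library, 230 and 201 were called higher, with medians of 0.76 and 0.68.

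Named genes gave the values behind these counts. Plxnd1 RNA was 4.97 and 2.84 CPM in Parental −OHT and 29.3 and 31.6 CPM in Parental +OHT cells. It was 4.17 and 4.70 CPM before and 36.8 and 29.4 CPM after OHT in RING1B I53S cells, and 4.81 and 1.10 before and 9.26 and 7.60 after in RING1B WT cells. The 2 conditions did not overlap in any line, and the log2 fold changes were 2.92 (SE 0.387) in Parental, 2.90 (SE 0.380) in RING1B I53S and 1.51 (SE 0.417) in RING1B WT cells, with edgeR FDR of 1.09e-05, 1.68e-05 and 0.0628. Otx1 rose from 0.733 and 0.618 CPM to 25.9 and 27.7 CPM in Parental cells and from 3.17 and 0.959 to 25.4 and 27.9 CPM in RING1B I53S cells. In RING1B WT cells it rose from 2.14 and 0.768 to 5.43 and 8.47 CPM, with a log2 fold change of 2.23 against 5.26 in Parental cells. At this locus, of which 2 RING1B I53S peaks covered 22.7%, the RNA level of RING1B I53S +OHT cells was within the range of Parental +OHT cells or close to it.

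Sphk1, Fstl4 and Gbx2 had no RING1B I53S peak. Sphk1 went from 1.06 and 1.73 CPM to 21 and 21.5 CPM in Parental, from 2.94 and 1.06 to 16.6 and 22.0 in RING1B I53S and from 2.99 and 1.32 to 4.23 and 6.73 in RING1B WT cells. Fstl4 went from 0.815 and 0.494 CPM to 13.5 and 18.1 CPM in Parental, from 1.62 and 0.959 to 17.3 and 14 in RING1B I53S and from 1.07 and 1.10 to 1.71 and 3.11 in RING1B WT cells. Gbx2 went from 1.3 and 1.36 CPM to 7.09 and 9.55 CPM in Parental and from 0.927 and 1.53 to 6.62 and 8.70 in RING1B I53S cells, and had overlapping values in RING1B WT cells, 2.25 and 2.85 before and 1.31 and 2.86 after OHT. All 3 were called higher in Parental and RING1B I53S cells and not in RING1B WT cells. Abhd15 (log2 fold change 2.39) was called higher in Parental cells too, and lost its call without Parental −OHT replicate 2 or Parental +OHT replicate 1.

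**Figure D5:**
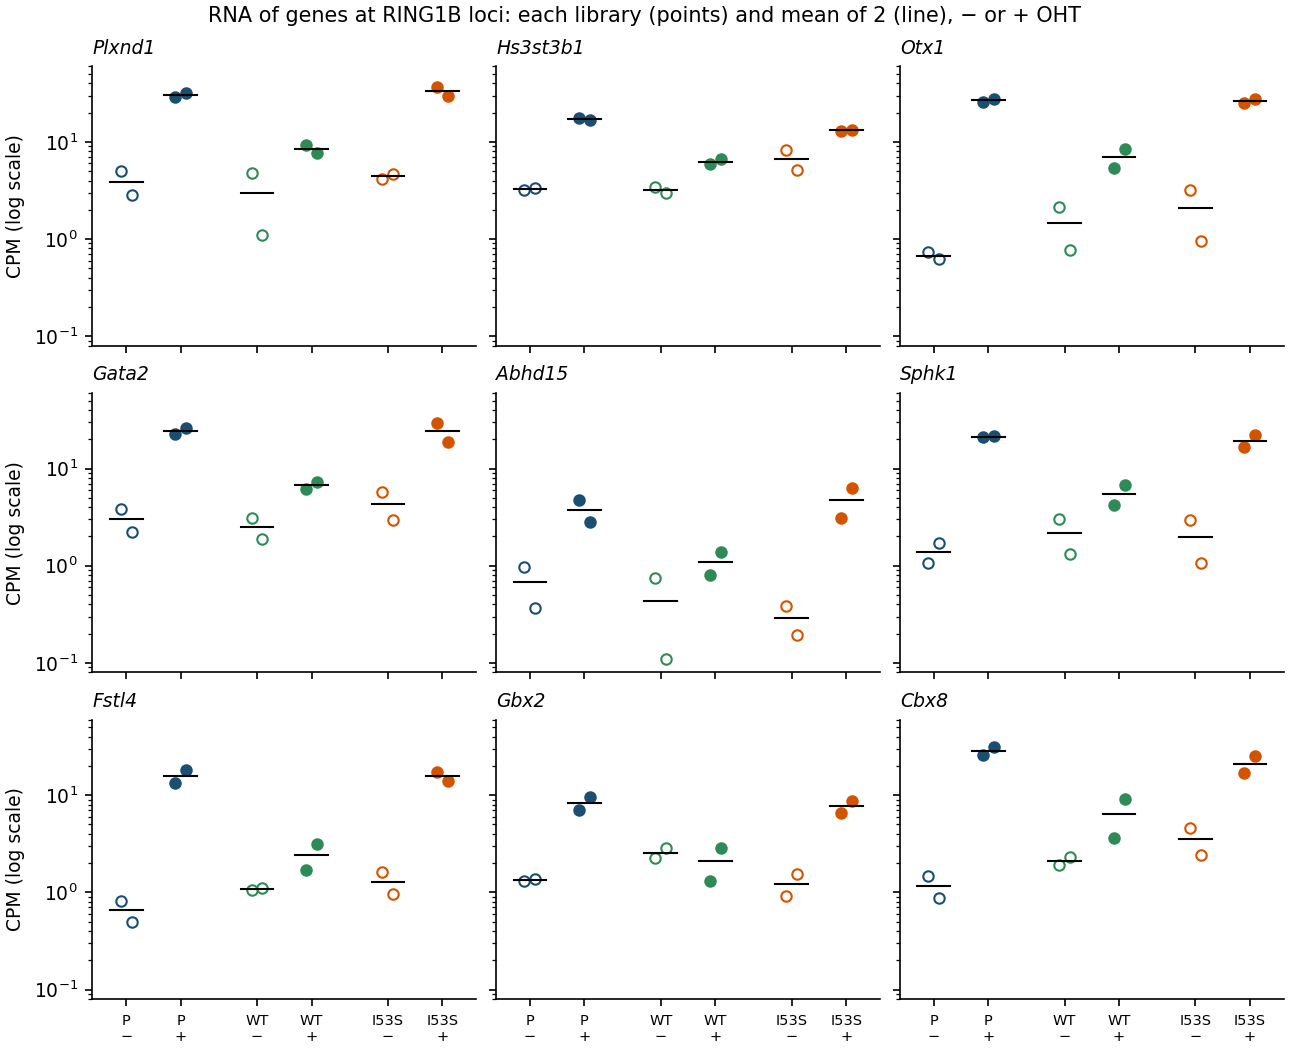
RNA level (CPM, log scale) of 9 genes at RING1B loci in each library (points, open without and filled with OHT) and the mean of 2 (line) for the Parental (P), RING1B WT (WT) and RING1B I53S (I53S) lines. The filled points of Parental and RING1B I53S lie above the open ones for all 9 genes, as for Plxnd1 with 29.3 and 31.6 CPM against 4.97 and 2.84 in Parental cells, and the filled points of RING1B WT lie lower.

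Cbx8, a PRC1 subunit gene under the widest peak, went from 1.47 and 0.865 CPM to 26.2 and 31.1 CPM in Parental and from 4.64 and 2.4 to 17.0 and 25.4 CPM in RING1B I53S cells. Of the 27 PRC1 subunit genes, 6 were called higher and 1 lower in Parental cells and 4 and 0 in RING1B I53S cells, with 0 called in RING1B WT cells. As shares, 6 and 4 of 27 are near the 15.1% and 12.8% called higher over all genes tested, and give no result about these genes as a group. Several genes with the strongest RING1B I53S peaks had almost no RNA in any sample. Neurod2 was at or under 0.288 CPM in all 12 libraries, Insm1 at or under 0.258 CPM and Nkx1-1 at or under 0.0975 CPM. Tlx2 was at 0 in both Parental −OHT libraries and at 0.512 and 0.682 CPM with OHT, at least 4.02-fold higher against a floor of 3 counts over the group. Gm4969 was called higher in Parental cells (log2 fold change 1.92, edgeR FDR 0.0339), and the call was lost with DESeq2 and without any of 3 of the 4 Parental libraries.

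Of the 191 developmental regulators, 157 were tested. In Parental cells 123 were called higher and 3 lower, in RING1B I53S cells 116 and 2 and in RING1B WT cells 14 and 0, with median log2 fold changes of 4.12, 3.77 and 1.53. Over all genes tested, 15.1%, 12.8% and 1.34% were called higher. Sox9, a factor of cartilage and neural crest, went from 0.326 and 0.124 CPM to 19.5 and 22.3 CPM in Parental and from 0.155 and 0 to 14.1 and 17.1 CPM in RING1B I53S cells, and was 0.403 and 1.25 CPM in RING1B WT +OHT cells. Gata2, a blood and trophoblast factor, went from 3.83 and 2.23 CPM to 22.7 and 26.1 CPM in Parental and from 5.72 and 2.97 to 29.5 and 18.7 CPM in RING1B I53S cells. Hoxd9 was at 0 in Parental −OHT cells and at 3.67 and 3.80 CPM with OHT, at least 25.3-fold higher, and Zic1 was at least 34.3-fold higher. Among the tested Hoxa, Hoxb and Hoxd genes, 7 in each cluster, all were called higher in Parental cells, and 6, 7 and 7 in RING1B I53S cells. Of the 8 tested Hoxc genes, 5 were called higher in Parental and 5 in RING1B I53S cells. Of the 5 Zic genes, 2 were called higher and 3 lower in Parental cells, with a median log2 fold change of −2.10. Over all genes tested, 1.83% were called lower in Parental cells.

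Among the 20 germline genes 15 were called higher in Parental, 13 in RING1B I53S and 8 in RING1B WT cells, where 15.1%, 12.8% and 1.34% of all genes tested were. Meioc, needed for meiosis, went from 10.3 and 6.18 CPM to 91.4 and 71.7 CPM in Parental cells, from 13.2 and 8.83 to 88.5 and 61.4 in RING1B I53S and from 7.91 and 2.08 to 16.5 and 23.3 in RING1B WT cells. Ddx4, a germ cell helicase gene that kept a RING1B I53S peak, went from 14.1 and 25.3 CPM to 91.6 and 107 CPM in Parental and from 14.6 and 22.7 to 57.8 and 82.0 CPM in RING1B I53S cells. Of the 15 pluripotency genes 0 were called higher and 5 lower in Parental cells, 0 and 4 in RING1B I53S cells and none in RING1B WT cells, and of all genes tested 1.83%, 1.04% and 0.0386% were called lower in Parental, RING1B I53S and RING1B WT cells. Prdm14, a germline and naive-state regulator with a weak Parental −OHT peak, fell from 45.1 and 38.0 CPM to 12.7 and 13.8 CPM in Parental and from 43.6 and 47.3 to 11.4 and 14.6 CPM in RING1B I53S cells, with log2 fold changes of −1.65 and −1.80.

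Markers of other cell types moved with OHT in the same lines. The summed level of 6 trophoblast markers was 159 to 186 CPM in Parental −OHT and 372 to 377 CPM in Parental +OHT cells, and 165 to 200 and 276 to 316 CPM in RING1B I53S cells. That of 5 primitive endoderm markers was 2.36 to 2.47 and 33.1 CPM in Parental cells and 2.4 to 3.94 and 24.5 to 26.8 CPM in RING1B I53S cells. That of 5 fibroblast markers was 11.9 to 14 and 46.1 to 49.4 CPM in Parental and 14.8 to 15.5 and 40.2 to 50.7 CPM in RING1B I53S cells. In RING1B WT +OHT cells the sums were 203 to 226, 5.33 to 8.59 and 20.6 to 20.7 CPM. The number of markers at 1 CPM or more went from 3 to 5 of 6, from 1 to 5 of 5 and from 2 to 3 of 5 in Parental cells, from 4 to 5, from 2 to 5 and from 2 to 3 in RING1B I53S cells, and from 3 to 4, from 1 to 2 and from 2 to 3 in RING1B WT cells. Without OHT, Gata6, Sox7, Postn and Twist2 were at 0 in Parental cells, Elf5, Sox7, Postn and Twist2 in RING1B I53S cells and Elf5 and Postn in RING1B WT cells. With OHT no marker was at 0 in both libraries except Postn and Twist2 in RING1B WT cells. The summed level of the 6 ESC markers was 3216 to 3889 CPM in Parental −OHT and 1487 to 1606 CPM in Parental +OHT cells. It was 3483 to 4125 and 1772 to 1958 CPM in RING1B I53S cells and 3671 to 4774 and 3209 to 3255 CPM in RING1B WT cells. Several of these markers are RING1B loci themselves, such as Gata4, Gata6, Sox7 and Sox17. A change in the mix of cells and a change of RNA within cells cannot be told apart in these libraries, and their part in the counts above was not tested.

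Genes with a promoter peak off the Parental −OHT loci had more RNA at the median than all genes tested. The 194 tested genes with a promoter peak in Parental +OHT and none in Parental −OHT cells had a median of 90.8 CPM in Parental −OHT cells, and the 277 genes with such a peak in RING1B I53S cells 68.1 CPM. The median was 11.8 CPM over all genes tested. On chromosome 11 alone the medians were 92.6 CPM (138 genes) and 64.9 CPM (173 genes), against 20.7 CPM over all tested genes of that chromosome. With OHT, 3 of the 194 genes were called higher and 0 lower in Parental cells, and 3 and 1 of the 277 in RING1B I53S cells. Over all genes tested, 15.1% were called higher and 1.83% lower in Parental cells, and 12.8% and 1.04% in RING1B I53S cells. The tested genes with a Parental −OHT promoter peak had a median of 2.72 CPM. Peaks outside promoters have no gene in these counts.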

How the data were processed

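RING1B was profiled by ChIP-seq in 4 libraries, 1 per condition, and RNA in 12, 2 per condition. The authors aligned reads to mm10 with Bowtie 1.2.2 (unique alignments) and removed duplicates with samblaster. The deposited peak scores are −log10 p-values that the authors obtained with MACS2 2.1.1, library by library, against a common input at p 1e-10. By the sample labels, the only input not named for a histone mark came from E14 ESCs, another line. The part of the input's line in the peaks of each chromosome was not tested. Weak enrichment just under that threshold is absent from a list, and signal per locus and depth per library were not analysed here. For RNA the authors deposited raw counts per GENCODE M21 gene name, from STAR 2.7 alignments without duplicates, assigned by featureCounts without strand. Without strand, genes that overlap on opposite strands cannot be told apart. The deposited comparison tables, which hold fold changes and p-values, and the normalized counts were not used.

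The peak lists were compared in Python 3.11.15, numpy 2.4.6, pandas 2.3.3, scipy 1.17.1 and pysam 0.24.0, with sequence and gene models of GRCm38.p6 (mm10). Start sites for promoter shares and for genes with a peak were those of protein-coding and lncRNA genes in GENCODE M21. RefSeq promoters were the comparison set for motifs. Shared loci overlapped by at least 1 bp, and promoters reached 2.5 kb to either side of a start site. Counts were fitted in R 4.3.3 with edgeR 4.0.16 (TMM, filterByExpr, quasi-likelihood test, 1 fit over the 12 libraries), and genes were called at an FDR under 0.05 and a log2 fold change of 1.5 or more in either direction. The libraries held 8140106 to 12743460 counts (median 9991785), with a common biological coefficient of variation of 0.181. Tested on simulated data for Parental +OHT against −OHT with 18154 genes, edgeR called 0%, 82%, 94% and 94% of genes changed by log2 1, 2, 3 and 5, with 2 false calls. The overlap code was right at 100% of 1000 placed loci.

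Named genes are those of the 5 promoter peaks with the highest Parental −OHT score, the 5 with the highest RING1B I53S score at Parental −OHT loci without a Parental +OHT peak, the 5 strongest loci with RING1B WT and no RING1B I53S or Parental +OHT peak, the 5 with the highest Parental +OHT score, the 5 widest peaks of Parental −OHT and of RING1B I53S, up to 2 genes per gene list by Parental −OHT score, Rnf2 and Prdm12. Other members of the lists named with a RING1B I53S or Parental +OHT peak, marker genes, Recql5 as a sequence and the motifs searched were chosen after values were seen, and some genes that the rule names are not reported here. The members, lists and tests were chosen with earlier results of these data known. Alternatives were DESeq2 1.42.0, RLE scaling, no filter, no fold threshold, a replicate block, each library left out, and other score, overlap, list-length, promoter and CpG settings, and, added after the data had been seen, chromosome 11 left out. Prdm12 scored 181 in Parental −OHT and 103 in RING1B WT cells and had no other peak.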

Additional observations from a re-analysis of the deposited data

Results flagged for a closer look

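The OHT effect on RNA differed between the RING1B WT and Parental lines, by the interaction contrast of edgeR's quasi-likelihood test at an FDR under 0.05, at 8 of the named genes. The effect in RING1B WT minus that in Parental cells was −5.50 on the log2 scale for Sox9 (SE 1.23, FDR 0.0229), −3.39 for Fstl4 (SE 0.667, FDR 0.00902), −3.03 for Otx1 (SE 0.713, FDR 0.0297), −2.98 for Cbx8 (SE 0.646, FDR 0.0189), −2.95 for Gbx2 (SE 0.637, FDR 0.0188) and −2.64 for Sphk1 (SE 0.641, FDR 0.0355). Gbx2 lies on chromosome 1 and the other 5 of these on chromosome 11, and all 6 loci held a RING1B WT peak. Both +OHT libraries of the RING1B WT line were below both of the Parental line at each of the 6 genes. The difference was positive for 2 pluripotency genes, 1.46 for Prdm14 (SE 0.291, FDR 0.00998) and 0.99 for Esrrb (SE 0.233, FDR 0.0308), which is under the fold threshold of 1.5 for both. Their +OHT values were 44.1 and 38.5 CPM for Prdm14 in RING1B WT against 12.7 and 13.8 CPM in Parental cells, and 447 and 382 CPM for Esrrb against 206 and 206 CPM. Among the 4716 genes with a Parental −OHT RING1B promoter peak, of which 3555 were tested, the difference was called at 170 lower and 4 higher, where 1.1% of all genes tested were called lower and 0.435% higher.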

How the results depend on the processing

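With a score of at least 20, RING1B WT, RING1B I53S and Parental +OHT cells had 2313, 52 and 12 peaks. Without chromosome 11 and with every score kept, RING1B I53S and Parental +OHT cells had 427 and 120. The share of Parental −OHT loci kept by RING1B WT, RING1B I53S and Parental +OHT was 60.2%, 1.91% and 0.966% with 50% of the locus covered, 44.3%, 0.946% and 0.197% with a score of at least 20, and 80.4%, 16.1% and 0.870% with lists of equal length. With RING1B WT peaks as the loci, RING1B I53S and Parental +OHT kept 9.01% and 3.20% over all chromosomes. With the Parental −OHT loci outside chromosome 11, they kept 3.72% and 0.383%. The order of the libraries was the same in each case. The promoter shares of Parental −OHT, RING1B WT, RING1B I53S and Parental +OHT peaks were 78.5%, 76.0%, 39.2% and 33.6% with 1 kb around a start site, 80.7%, 79.5%, 51.0% and 44.8% with the start site within 2.5 kb of the peak centre, and 86.3%, 86.8%, 76.9% and 41.7% with a score of at least 20. With protein-coding start sites the shares of Parental −OHT and RING1B WT were 79.0% and 78.1%. With the main settings and without chromosome 11, the shares of RING1B WT, RING1B I53S and Parental +OHT were 84.2%, 63.7% and 55.0%. Median CpG per 100 bp was 7.20 in Parental −OHT and in RING1B WT in the central 500 bp, 6.09 and 2.00 in RING1B WT and RING1B I53S with lists of equal length, and 5.92, 6.58 and 2.7 in Parental −OHT, RING1B WT and RING1B I53S without chromosome 11. As GC percent the medians were 60.1, 61.3, 55.1 and 53.

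Without the filter on low counts, 279 genes with a Parental −OHT promoter peak were called higher and 5 lower with OHT in RING1B WT cells. Without a fold threshold the genes called lower were 132 in Parental, 12 in RING1B WT and 85 in RING1B I53S cells. Over the fits without 1 library each, the genes called higher and lower ranged from 1381 to 1701 and from 17 to 25 in Parental, from 12 to 201 and from 0 to 4 in RING1B WT and from 1086 to 1530 and from 13 to 23 in RING1B I53S cells. Without RING1B WT −OHT replicate 2 the count of genes called higher in RING1B WT cells was 12, and without RING1B WT +OHT replicate 2 it was 21, and without either 0 were called lower. Without RING1B I53S +OHT replicate 1, 23 were called lower in RING1B I53S cells. With a replicate block 1691 genes were called higher and 23 lower in Parental, 183 and 3 in RING1B WT and 1533 and 17 in RING1B I53S cells, each count within 1.5 times that without the block. Nothing in the labels says that a number marks a shared culture or day, and the samples were not treated as pairs, since not every correlation was above 0.1: deviations of same-numbered samples correlated at −0.0033 to 0.301 over 15 pairs of groups (median 0.116), above 0.1 in 9. Among the named genes refitted, the call of Gm4969 was lost with DESeq2 (log2 fold change 1.98) and without Parental −OHT replicate 2 (1.38), Parental +OHT replicate 1 (1.91) or Parental +OHT replicate 2 (1.95), that of Abhd15 without Parental −OHT replicate 2 (1.90) or Parental +OHT replicate 1 (1.98), and Rnf2 was called without a fold threshold. The causes were not tested.

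Each RING1B condition is 1 library, so clone and depth cannot be told apart from the condition, and enrichment under the threshold is not listed. Peak scores have no scale shared across libraries. No change on OHT or order of RING1B WT, RING1B I53S and Parental +OHT was turned by the alternatives run, except that the promoter shares of Parental −OHT and RING1B WT peaks, 82.6% and 81.8% with the main settings, changed places at a score of at least 20 and without chromosome 11 (83.6% and 84.2%).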
